A study of Homo sapiens with 12 samples.

Results

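The 10 genes described here were grouped as immediate early genes, and comprise the FOS family (FOS, FOSB, FOSL1 and FOSL2), the JUN family (JUN, JUNB and JUND), the zinc finger genes EGR1 and EGR3, and IER2. They were selected by gene name, with earlier results of these data known, from the 58575 usable genes of the count table and the 60617 genes of the TPM table. All 10 had counts, all 10 passed the filter on low counts, and they were tested among 17747 genes. In the serum-containing medium of Cond 3, 4 of them were lower than in Cond 1 by more than 2-fold (EGR3, FOSL1, IER2 and EGR1), as were 3.31% of all genes. In the heat-treated medium of Cond 2, 3 of them (FOSL2, EGR3 and JUN) were higher by less than 2-fold. Of all genes, 10.8% were called higher there, and the call of JUN was lost in some alternative settings. No member passed the test after the pipetting of Cond 4, where 0.0282% of all genes did. FOS, FOSB and JUNB differed by a larger ratio between the libraries of Cond 3 than between the means of the conditions.

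Immediate early genes are transcribed within minutes of a stimulus such as serum, a growth factor or stress, without need of new protein synthesis, and their mRNAs are usually short-lived. FOS and JUN proteins pair through leucine zippers to form the AP-1 transcription factor, and EGR proteins bind GC-rich sites through zinc fingers. In pluripotent stem cells, ERK signalling downstream of FGF2 is a known driver of EGR1 and FOS family expression.

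RNA-Seq libraries came from 201B7, an established human iPSC line labelled as derived from skin, and were harvested on Day 5. Cond 1 was the control in StemFit medium, Cond 2 (low nutrient) received StemFit that had been heated at 56 °C for 30 min, from Day 2, Cond 3 (differentiation) received DMEM with 10% FBS, non-essential amino acids and GlutaMax from Day 4, and Cond 4 (physical stimulus) was pipetted 20 times at passaging. Each of the 4 conditions had 3 libraries, which the study calls technical replicates in its results and describes in its methods as an arrangement run in triplicate. Whether they are separate cultures was not settled here, and p-values measure the spread between these libraries of 1 line, which may be technical. Total counts were between 16441148 and 21871503 per library. The serum medium was given 1 day before harvest, so the exchange of medium and its serum cannot be told apart. All 10 pluripotent stem cell markers examined reached 1 TPM in every condition, with a summed level between 7392 and 9502 TPM per library. POU5F1 (OCT4), which the study used as a marker and reported as lower in Cond 2, was not among these 10. Of the 8 fibroblast markers, COL3A1, LUM, DCN and FAP stayed below 1 TPM in every condition, and the summed level of the list ran from 424 to 456 TPM in Cond 1, 265 to 314 in Cond 2, 585 to 622 in Cond 3 and 384 to 408 in Cond 4. The part of this difference in the results below was not tested.

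Promoter sequences are shown for EGR1, which changed between conditions, for FOS, FOSB and JUNB, which varied most between libraries, and for JUND, which varied least. Each is the 250 bases before the RefSeq start site in GRCh38.p14, written 5′ to 3′ on the gene's strand, and RefSeq promoters were matched for 8 of the 10 genes, without FOSL1 and EGR3. Capitals mark the CArG box bound by SRF, the core of the cyclic AMP response element (TGACG), the EGR site (GCGNGGGCG) and the word TATAAA, each searched on both strands.
EGR1, chr5:138465229-138465478, + strand, no annotated gene in the window.
EGR1: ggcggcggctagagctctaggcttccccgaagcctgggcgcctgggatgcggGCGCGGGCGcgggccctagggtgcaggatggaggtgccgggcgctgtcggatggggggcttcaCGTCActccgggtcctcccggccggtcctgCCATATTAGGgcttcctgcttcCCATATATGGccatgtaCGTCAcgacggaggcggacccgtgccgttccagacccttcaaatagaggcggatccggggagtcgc
FOS, chr14:75278578-75278827, + strand, ending 2 bases inside the GENCODE FOS exon.
FOS: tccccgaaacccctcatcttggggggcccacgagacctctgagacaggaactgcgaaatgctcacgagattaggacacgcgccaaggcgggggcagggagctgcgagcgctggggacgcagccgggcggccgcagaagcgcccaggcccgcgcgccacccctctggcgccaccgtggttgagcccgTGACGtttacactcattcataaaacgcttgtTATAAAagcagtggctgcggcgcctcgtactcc
FOSB, chr19:45467746-45467995, + strand, inside the body of ERCC1 on the other strand but in none of its exons.
FOSB: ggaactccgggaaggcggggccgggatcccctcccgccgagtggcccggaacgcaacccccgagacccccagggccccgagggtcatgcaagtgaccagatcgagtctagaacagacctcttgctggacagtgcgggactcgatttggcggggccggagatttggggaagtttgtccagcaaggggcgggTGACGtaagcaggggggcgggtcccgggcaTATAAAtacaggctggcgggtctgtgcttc
JUNB, chr19:12791236-12791485, + strand, inside the body of HOOK2 on the other strand but in none of its exons.
JUNB: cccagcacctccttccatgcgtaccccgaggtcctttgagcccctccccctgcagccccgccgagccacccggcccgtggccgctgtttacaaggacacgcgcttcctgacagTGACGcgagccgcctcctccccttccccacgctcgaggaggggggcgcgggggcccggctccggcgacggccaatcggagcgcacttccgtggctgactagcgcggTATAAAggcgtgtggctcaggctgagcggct
JUND, chr19:18281623-18281872, - strand, no annotated gene in the window.
JUND: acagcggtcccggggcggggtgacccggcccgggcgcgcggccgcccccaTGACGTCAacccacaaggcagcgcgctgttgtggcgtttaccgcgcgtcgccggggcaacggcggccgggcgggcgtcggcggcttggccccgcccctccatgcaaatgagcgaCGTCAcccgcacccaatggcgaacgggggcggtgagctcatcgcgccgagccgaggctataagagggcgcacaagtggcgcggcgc

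The TGACG core was present in 8 of the 8 promoters, against 21.2% of 35116 RefSeq promoters of the same length. EGR1 carried 2 CArG boxes, from -105 to -96 and from -83 to -74 relative to the start site, and none of the other 7 had a CArG box in this window, which 1.16% of all promoters had. An EGR site lay from -198 to -190 of EGR1 (8.41% of all promoters), and the full TGACGTCA element, which contains the core on both strands, lay from -200 to -193 of JUND (1.65%). TATAAA was found in FOS from -33 to -28, in FOSB from -30 to -25 and in JUNB from -31 to -26, against 10.7% of all promoters. The AP-1 site TGANTCA was in 0 of the 8 windows and in 6.57% of all promoters. Such matches describe letters in these windows and do not show binding. Sequence further upstream was not searched, so a site missing from a window may still lie beyond it.

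Levels were compared on TPM, which is per gene length, and differed widely among the 10 genes. JUND, the most steadily expressed JUN protein, had the highest mean level in every condition, with 376 TPM ± 23.8 (SD, n = 3) in Cond 1, followed by EGR1 (220 ± 24.7) and IER2 (118 ± 4.69). FOSB, EGR3 and FOSL2 were the lowest in Cond 1, at 1.62 ± 0.551, 5.11 ± 1.05 and 5.21 ± 0.264 TPM. The summed level of the 10 genes in Cond 1 was 859 ± 15.7 TPM, of which JUND made up 43.9%, EGR1 25.6% and IER2 13.8%. In Cond 3 the sum was 674 ± 152 TPM and the share of JUND 58.3%.

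**Figure D1:**
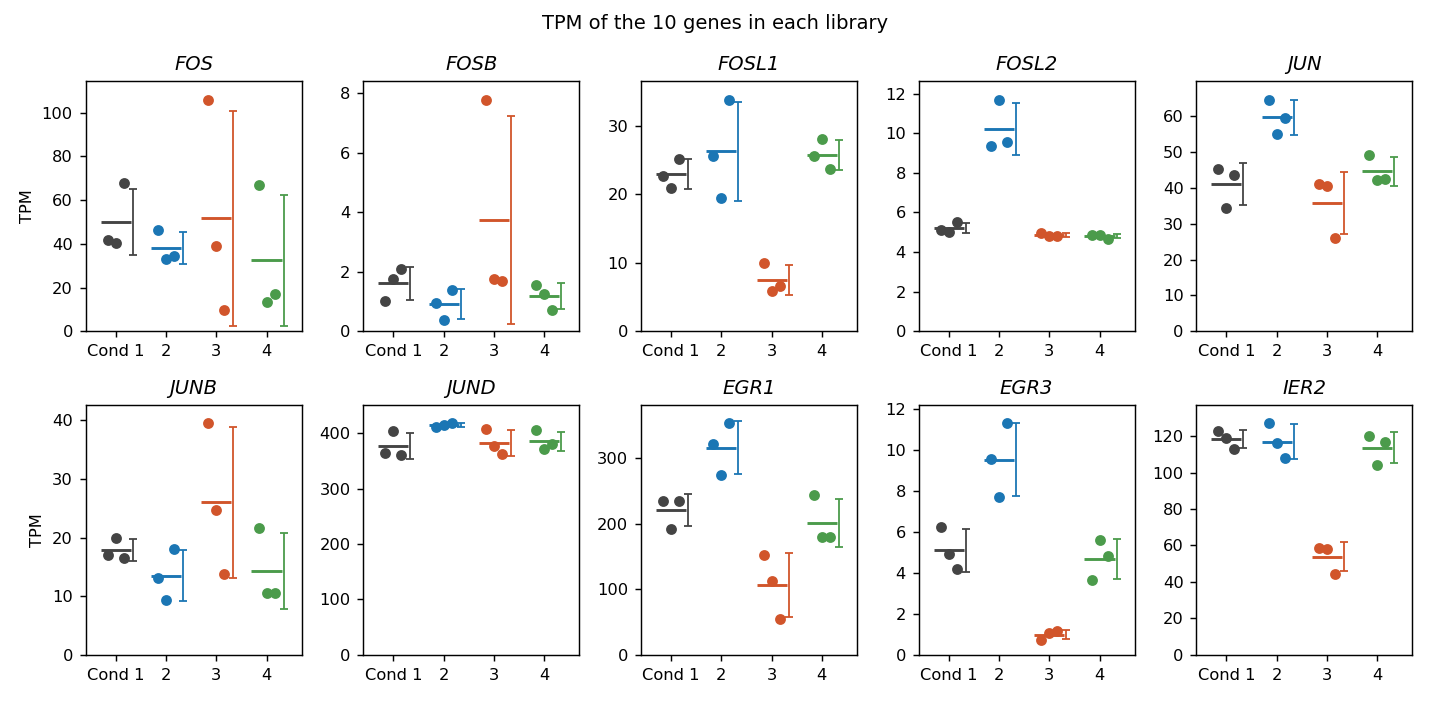
TPM of each gene (y axis, linear and from 0, a separate scale per gene) in the 3 libraries of Cond 1 to Cond 4, with the points of a condition in the order of replicates 1 to 3, the mean as a line and the SD as a bar. EGR3, FOSL1, IER2 and EGR1 were lower in all Cond 3 libraries than in any other library, FOSL2 was higher in all Cond 2 libraries, and FOS ran from 9.76 to 106 TPM within Cond 3.

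In Cond 3 vs Cond 1, 4 of the 10 genes were lower and 0 higher by the quasi-likelihood test of edgeR, run as a joint fit of the 12 libraries with Benjamini-Hochberg adjustment over all 17747 genes. These 4 also had a fold change above 2, the study's limit for DEGs. Of all genes, 38.4% passed the test (18.8% as lower and 19.5% as higher), 8.16% also had a fold change above 2, and 3.31% were lower past both limits. The median log2 fold change was -0.18 over the 10 genes and -0.01 over all genes. A lower level in bulk RNA cannot be told apart from a smaller share of cells that express the gene.

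EGR3, a zinc finger factor of the EGR family (chr8:22687659-22693480, - strand, overlapped by an unnamed gene on the other strand), changed most. Its TPM was 6.24, 4.92 and 4.17 in replicates 1 to 3 of Cond 1 and 0.746, 1.05 and 1.16 in those of Cond 3, where 23 to 31 reads were counted per library. The groups did not overlap, and the log2 fold change was -2.40 (SE 0.241, a 5.29-fold decrease, edgeR adjusted p = 4.93e-08). FOSL1, which encodes the FOS family protein FRA-1 (chr11:65892049-65900573, - strand), had 22.6, 20.9 and 25.2 TPM in Cond 1 and 10.0, 5.81 and 6.59 TPM in Cond 3. Each library of Cond 3 lay below each of Cond 1, with a log2 fold change of -1.64 (SE 0.202, 3.11-fold, edgeR adjusted p = 9.65e-07).

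IER2 encodes a small nuclear protein induced by growth factors (chr19:13150411-13154911, + strand, overlapped by unnamed genes on the other strand). Its TPM was 123, 119 and 113 in Cond 1 and 58.4, 58.2 and 44.5 in Cond 3. It had the smallest error of the 4, with a log2 fold change of -1.17 (SE 0.0895, 2.25-fold, edgeR adjusted p = 7.65e-10). EGR1, the founding member of the EGR family and a target of ERK signalling (chr5:138465479-138469303, + strand), had 235, 192 and 235 TPM in Cond 1 and 152, 113 and 54.5 TPM in Cond 3. The highest Cond 3 library was still below the lowest of Cond 1, and the log2 fold change was -1.08 (SE 0.201, 2.11-fold, edgeR adjusted p = 0.000181). Without Cond 3 replicate 3 the log2 fold change of EGR1 was -0.77, still past the test but under 2-fold. For each of these 4 genes the exact two-sided permutation test on TPM gave p = 0.1, the smallest p that 3 against 3 libraries allow. On TPM, 5 of the 10 genes did not overlap between Cond 3 and Cond 1, the other being FOSL2, compared with 48.6% of all genes.

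The other members did not pass the test in Cond 3 vs Cond 1. FOSB, a FOS protein with a strong transactivation domain (chr19:45467995-45475179, + strand, within the body of ERCC1 on the other strand), was closest, with 1.01, 1.75 and 2.09 TPM in Cond 1 and 7.79, 1.74 and 1.70 TPM in Cond 3. The 7.79 TPM of Cond 3 replicate 1 stood apart, while the other libraries of Cond 3 lay within the range of Cond 1. Its log2 fold change was 1.18 (SE 0.472, edgeR adjusted p = 0.0519) with all libraries and 0.06 (edgeR adjusted p = 0.94) without that library. JUNB had a log2 fold change of 0.52 (SE 0.288, edgeR adjusted p = 0.166), which was 0.09 without Cond 3 replicate 1 and 0.82 (edgeR adjusted p = 0.0238) without Cond 3 replicate 3. JUN had a log2 fold change of -0.22 (SE 0.133), FOSL2 of -0.13 (SE 0.126) and JUND of 0.00 (95% interval -0.12 to 0.11).

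FOS, the prototype of the FOS proteins (chr14:75278826-75282230, + strand), had 41.9, 40.4 and 67.6 TPM in Cond 1 and 106, 39.2 and 9.76 TPM in Cond 3. The groups overlapped in both directions, and the log2 fold change of 0.02 had a 95% interval from -0.95 to 1.00. Without Cond 3 replicate 1 it was -1.06 (edgeR adjusted p = 0.105), so its direction depended on that library. Changes of nearly 2-fold in either direction lay within the interval and were not detectable with these libraries.

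**Figure D2:**
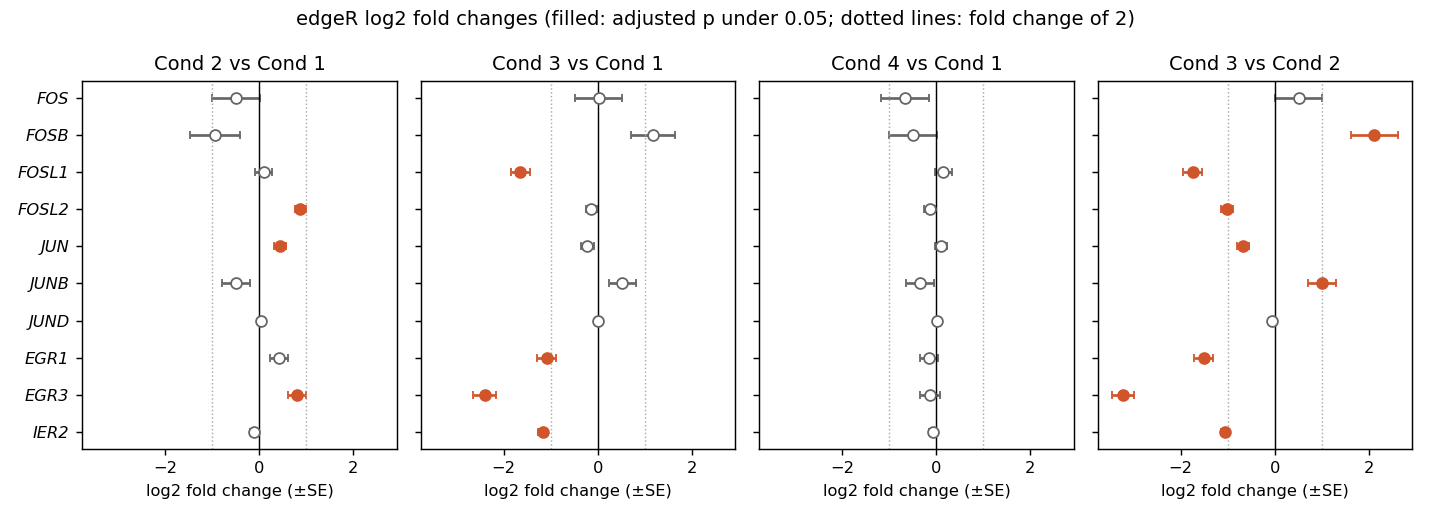
Log2 fold changes from edgeR (x axis, error bars ± SE) of the 10 genes (y axis) in 4 comparisons; filled points have an adjusted p under 0.05 and dotted lines mark a fold change of 2. Filled points lie left of -1 in Cond 3 vs Cond 1 (EGR3, FOSL1, IER2 and EGR1), between 0 and 1 in Cond 2 vs Cond 1 (FOSL2, EGR3 and JUN), and there are none in Cond 4 vs Cond 1.

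In Cond 2, the heat-treated medium, 3 of the 10 genes were higher than in Cond 1 and 0 were lower at an adjusted p under 0.05, where 20.9% of all genes passed (10.8% as higher and 10.1% as lower). None of the 3 reached a fold change of 2, which 4.34% of all genes did. The comparison shares its Cond 1 libraries with the others. FOSL2, which encodes the FOS family protein FRA-2 (chr2:28392448-28417317, + strand, with FOSL2-AS1 on the other strand), had 5.12, 5.00 and 5.50 TPM in Cond 1 and 9.37, 11.7 and 9.56 TPM in Cond 2. Its groups were far apart relative to their spread, with a log2 fold change of 0.88 (SE 0.121, 1.84-fold, edgeR adjusted p = 8.75e-06). In Cond 3 and Cond 4 it stayed between 4.67 and 4.97 TPM.

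EGR3 had 9.55, 7.72 and 11.3 TPM in Cond 2, above each of its 3 Cond 1 values, and its log2 fold change was 0.81 (SE 0.198, 1.76-fold, edgeR adjusted p = 0.00422). It was thus higher than Cond 1 in Cond 2 and lower in Cond 3. JUN (chr1:58776845-58784048, - strand), the founding JUN protein and a target of its own product, had 45.2, 34.3 and 43.5 TPM in Cond 1 and 64.7, 55.0 and 59.6 TPM in Cond 2. The groups did not overlap, and the log2 fold change was 0.45 (SE 0.131, 1.37-fold, edgeR adjusted p = 0.0144). Its call was lost without Cond 1 replicate 2 (0.34, edgeR adjusted p = 0.0947), without Cond 2 replicate 1 (0.37, edgeR adjusted p = 0.0584) and with DESeq2 (0.46, adjusted p = 0.0622).

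EGR1 had 321, 274 and 353 TPM in Cond 2, all above the 3 libraries of Cond 1, but did not pass the test (log2 fold change 0.43, SE 0.195, edgeR adjusted p = 0.127). In a fit of the 6 libraries compared alone it passed (adjusted p = 0.00499). JUND (chr19:18279694-18281622, - strand) had 365, 404 and 361 TPM in Cond 1 and 411, 415 and 418 TPM in Cond 2, which did not overlap on TPM, while its log2 fold change after TMM normalization was 0.05 (95% interval -0.06 to 0.17). By TPM, 5 of the 10 genes did not overlap between Cond 2 and Cond 1, compared with 35.7% of all genes. FOS, FOSB, FOSL1, JUNB and IER2 overlapped between these conditions, with log2 fold changes of -0.49, -0.94, 0.10, -0.49 and -0.10.

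Cond 3 was also compared directly with Cond 2, a comparison that does not use Cond 1. The 2 groups differ in exposure time as well as in medium, since heated medium was given from Day 2 and serum medium from Day 4, and these cannot be told apart. It called 8 of the 10 genes, 6 as lower and 2 as higher in Cond 3, and 7 of them with a fold change above 2, where 38.2% of all genes passed the test (19% as higher and 19.2% as lower) and 8.77% both limits. EGR3 had the largest difference, a log2 fold change of -3.22 (SE 0.236, 9.30-fold, edgeR adjusted p = 3.30e-10). FOSL1 (-1.74), EGR1 (-1.51), IER2 (-1.06), FOSL2 (-1.01) and JUN (-0.68) were lower as well, each without overlap between the libraries. On TPM, 8 of the 10 genes did not overlap, compared with 47.6% of all genes. FOSL2 lay at the 2-fold limit and moved between -0.91 and -1.07 in other settings. The median over the 10 genes was -0.85, against 0.00 over all genes.

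The calls of FOSB and JUNB, the 2 genes with higher levels in Cond 3, were both lost without Cond 3 replicate 1. FOSB had 0.962, 0.378 and 1.38 TPM in Cond 2, at 12 to 37 reads per library, and its log2 fold change of 2.12 (SE 0.505, edgeR adjusted p = 0.00186) became 1.00 (edgeR adjusted p = 0.0943) without Cond 3 replicate 1. It was also lost with limma on log2(TPM + 1) (1.11, adjusted p = 0.0688). JUNB, a JUN protein that often opposes JUN (chr19:12791486-12793315, + strand, within the body of HOOK2 on the other strand), had 13.1, 9.38 and 18.0 TPM in Cond 2 and 39.5, 24.7 and 13.8 TPM in Cond 3. These groups overlapped, and its log2 fold change of 1.01 (SE 0.295, edgeR adjusted p = 0.00877) fell to 0.58 (edgeR adjusted p = 0.14) without Cond 3 replicate 1 and to 0.80 (edgeR adjusted p = 0.0625) without Cond 2 replicate 2. DESeq2 did not call JUNB either (1.01, adjusted p = 0.0523).

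In Cond 4, 0 of the 10 genes passed edgeR's quasi-likelihood test against Cond 1, 0 at an unadjusted p under 0.05, and 0 with DESeq2, where 0.0282% of all genes were called by edgeR. On TPM the groups of 1 gene, FOSL2, did not overlap (11.9% of all genes). JUND and IER2 bounded the difference most closely, with log2 fold changes of 0.02 (95% interval -0.09 to 0.14) and -0.07 (-0.24 to 0.10). For EGR1 the value was -0.15 (-0.54 to 0.24) and for EGR3 -0.13 (-0.53 to 0.27). FOS was the least certain, at -0.66 (-1.67 to 0.35). Its TPM was 66.9, 13.3 and 17.1 in replicates 1 to 3 of Cond 4, so that replicate 1 lay within the range of Cond 1 and the others below it. Without Cond 4 replicate 1 the log2 fold change of FOS was -1.74 (edgeR adjusted p = 0.692). The cells were harvested days after the pipetting, and earlier times were not analysed here.

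The spread between libraries of the same condition separated the genes into steady and variable ones. In Cond 3 the highest FOS level was 10.9 times the lowest, and 0.0269% of 14883 genes with at least 1 TPM in each Cond 3 library had as wide a ratio, the median ratio being 1.16. In Cond 4 the ratio of FOS was 5.04, which 0.231% of 14724 genes matched. FOSB and JUNB had ratios of 4.59 and 2.86 in Cond 3, and EGR1 one of 2.79. By contrast, FOSL2 had a ratio of 1.04 in Cond 3, and JUND 1.02 in Cond 2. The biological coefficient of variation estimated by edgeR over the 12 libraries was 43.2% for FOS, 39.9% for FOSB and 24.5% for JUNB, compared with a median of 10.5% over all genes. It was 7.34% for IER2 and 5.19% for JUND. Since this measure falls with expression level, each was also set beside the edgeR trend at its own level, which was 7.67% for FOS, 21.1% for FOSB, 13.1% for JUNB, 6.12% for IER2 and 5.64% for JUND. EGR1 had 17.2% at a trend of 5.68%. FOS, EGR1, FOSB and JUNB were thus more variable than the trend at their level, while IER2 lay slightly above it and JUND slightly below. The 3 most variable genes by this measure were the 3 of 8 with TATAAA in the promoter window. Only this exact word was searched, and near matches, such as tataag in the window of the steady gene JUND, were not counted. No promoter was matched for EGR3 and FOSL1, and a link between TATAAA and this spread was not tested.

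In Cond 3 and Cond 4, FOS, FOSB, JUNB and EGR1 were highest in the same library, replicate 1. Cond 3 replicate 1 had the highest TPM of its condition for 9 of the 10 genes, with EGR3 as the exception, while it was the highest for 36.9% of all genes and for 13 of 28 other immediate early genes. Cond 3 replicate 3 was the lowest of its condition for 8 of the 10, and Cond 2 replicate 2 for 7 of the 10. The share of all genes was not computed for the lowest library. In Cond 4, replicate 1 was the highest for 7 of the 10, against 34.3% of all genes. Relative to the mean log2 TPM of its condition, Cond 3 replicate 1 was higher by 1.63 for FOS, 1.45 for FOSB, 0.73 for JUNB and 0.64 for EGR1, and replicate 3 differed by -1.82, -0.75, -0.79 and -0.84. In Cond 4 replicate 1 the values were 1.43 for FOS, 0.49 for FOSB, 0.69 for JUNB and 0.30 for EGR1. In Cond 1 and Cond 2 these 4 genes did not all share a highest library. In Cond 1, FOS (0.48), FOSB (0.43) and EGR1 (0.10) were highest in replicate 3, where JUNB was lowest (-0.10). In Cond 2, FOS was highest in replicate 1 (0.31), and FOSB (0.80), JUNB (0.47) and EGR1 (0.17) in replicate 3. All 4 were lowest in Cond 2 replicate 2, at -0.18 for FOS, -1.07 for FOSB, -0.47 for JUNB and -0.20 for EGR1. Replicate 3 was the highest for 5 of the 10 in Cond 1 (26.7% of all genes) and 6 of the 10 in Cond 2 (36.7%). These 10 genes are not independent of each other, and what set these libraries apart was not tested.

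**Figure D3:**
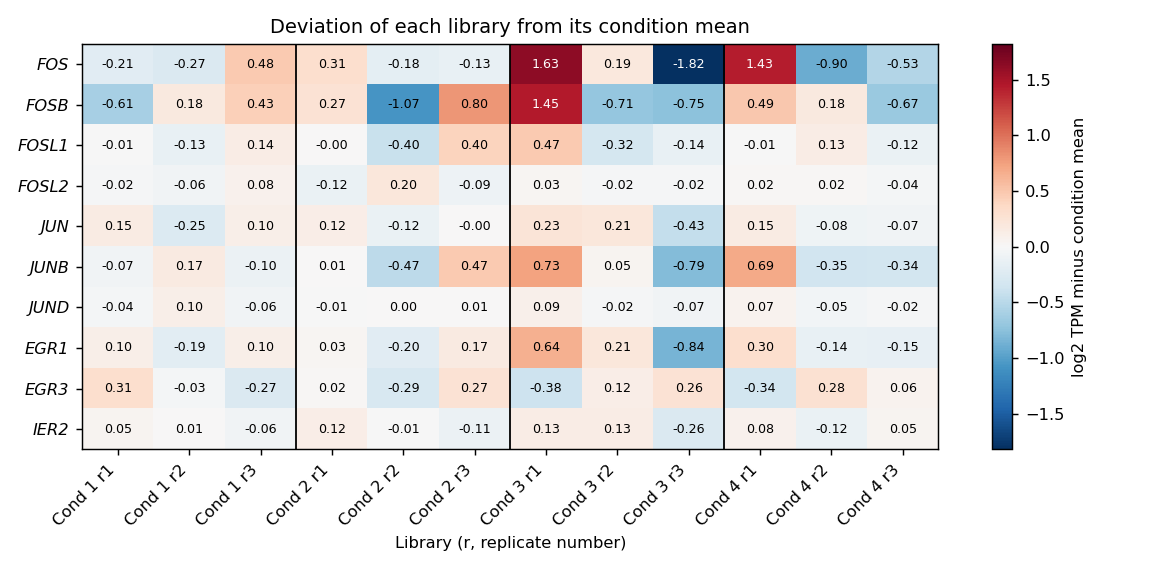
Log2 TPM of each gene (y axis) in each library (x axis) minus the mean log2 TPM of its condition, as colour and as a number; vertical lines separate the conditions. FOS, FOSB, JUNB and EGR1 are above their mean in replicate 1 and below it in replicate 3 of Cond 3, and FOS and JUNB are above it in replicate 1 of Cond 4.

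Within the FOS family the mean shares differed between conditions, and no test was run on them. In Cond 1 the family sum was 79.7 ± 18.0 TPM (SD, n = 3), of which FOS made up 62.0% ± 4.60, FOSL1 29.3% ± 3.65, FOSL2 6.69% ± 1.05 and FOSB 2.03% ± 0.575. FOSL2 made up 13.9% ± 3.69 in Cond 2, with shares of 11.4% to 18.1% that lay above the 5.48% to 7.35% of Cond 1. In Cond 3 the share of FOS ran from 42.7% to 82.4% across libraries, and in Cond 4 from 28.0% to 67.7%. The 59.3% to 67.3% of Cond 1 lay within both ranges. The JUN family was dominated by JUND in every condition, with mean shares of 86.4%, 85.0%, 86.3% and 86.8% in Cond 1 to Cond 4. Its sum was 435 ± 20.0 TPM in Cond 1 and 488 ± 7.94 TPM in Cond 2. EGR1 made up at least 97.1% of the sum of EGR1 and EGR3 on average in each condition.

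**Figure D4:**
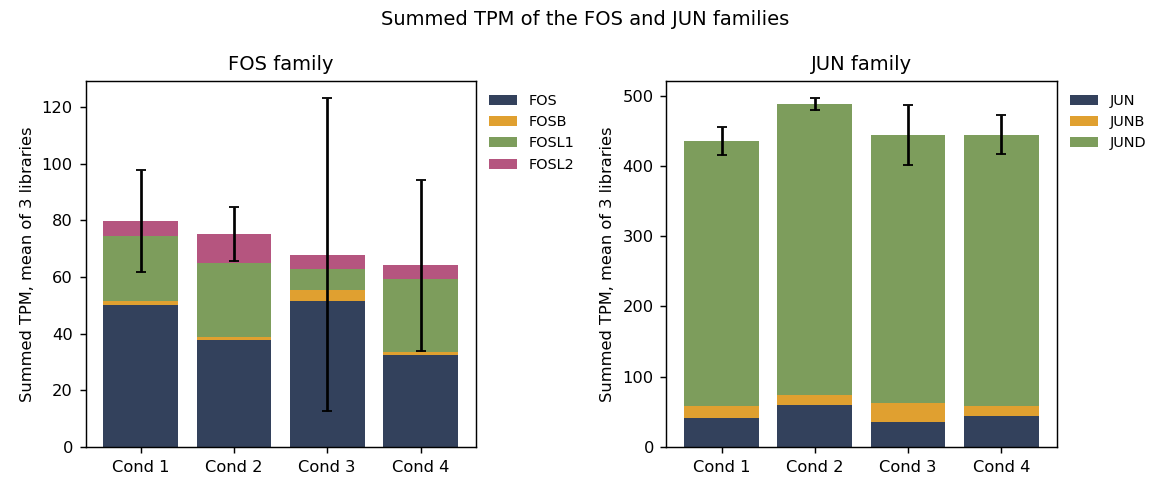
Mean summed TPM (y axis, from 0) of the FOS family (left) and the JUN family (right) in Cond 1 to Cond 4 (x axis), stacked by gene, with error bars for the SD of the sum over 3 libraries. JUND makes up most of the JUN family, and the bar of the FOS family in Cond 3 has an SD of 55.1 TPM around a mean of 67.9.

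Other genes of the pathway, in lists chosen with earlier results of these data known, were described by their counts in the same fit. These counts are to be read beside the shares of all genes. In Cond 3 vs Cond 1, 38.4% of all genes were called (19.5% as higher and 18.8% as lower). In Cond 2 vs Cond 1, 20.9% were called (10.8% as higher and 10.1% as lower). In Cond 3 vs Cond 1, 14 of 28 other immediate early genes were lower and 5 higher, with a median log2 fold change of -0.40. Among them, ARC, which encodes an activity-regulated cytoskeletal protein, went from 20.0 ± 3.23 TPM in Cond 1 to 6.50 ± 2.75 in Cond 3 (log2 fold change -1.64, edgeR adjusted p = 8.29e-07). CCN2, a matricellular growth factor (-1.98), MYC (-1.65) and the nuclear receptor NR4A1 (-1.27) fell too, while TNFAIP3, an inhibitor of NF-κB signalling, rose from 1.97 ± 0.575 to 5.47 ± 0.299 TPM (1.43, edgeR adjusted p = 3.34e-05). In Cond 2 vs Cond 1, 2 of the 28 were higher and 4 lower, so that 21.4% were called, near the 20.9% of all genes.

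Of the EGR family and its co-repressors, 3 of 4 tested genes were lower in Cond 3 and 0 higher. EGR4 had a log2 fold change of -2.56 (edgeR adjusted p = 2.62e-05), and EGR2 went from 3.85 ± 0.945 to 1.50 ± 0.459 TPM (-1.39, edgeR adjusted p = 0.000304). Among AP-1 partners and relatives, 5 of 8 were lower and 2 higher. ATF3, a stress-induced bZIP factor, went from 65.1 ± 4.34 to 18.3 ± 1.37 TPM (-1.85, edgeR adjusted p = 1.13e-13), BATF3 fell by 1.13 on the log2 scale, and JDP2, a repressor of AP-1, fell by 0.92. In Cond 2 ATF3 was higher by 0.26 (edgeR adjusted p = 0.0153) and BATF3 lower (-0.85, edgeR adjusted p = 0.00617).

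SRF and its ternary complex factors, which act through CArG boxes, moved in both directions in Cond 3, with 2 of 7 higher and 2 lower, and in Cond 2, with 4 higher and 1 lower. ELK4 fell from 21.9 ± 1.79 to 9.25 ± 0.953 TPM in Cond 3 (log2 fold change -1.27, edgeR adjusted p = 6.79e-11), whereas ELK3 was higher by 0.96 in Cond 3 and lower (-0.96) in Cond 2. Of 17 kinases of the ERK and JNK cascades, 4 were higher and 4 lower in Cond 3, and 5 were higher and 0 lower in Cond 2. These are 47.1% called in Cond 3 and 29.4% in Cond 2, against 38.4% and 20.9% of all genes. MAPK10, which encodes the kinase JNK3, rose from 0.814 ± 0.156 to 2.54 ± 0.616 TPM in Cond 2 (1.56, edgeR adjusted p = 4.18e-07). Factors that bind AU-rich mRNA and affect its decay were higher in 4 of 5 cases and lower in 1 in Cond 3, none by more than 2-fold. Heat shock genes, listed because the Cond 2 medium had been heated, were higher in 3 of 8 and lower in 1 of 8 in both Cond 2 and Cond 3. This is 50% called in each, against 20.9% of all genes in Cond 2 and 38.4% in Cond 3. HSPA1A and HSPA1B were also on the list but fell under the count filter and were not tested. HSPA1A had 0 TPM in every library, and HSPA1B at most 0.0842 TPM.

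Genes known as AP-1 targets were called in both directions. In Cond 2, 6 of 13 were higher and 4 lower, and in Cond 3 5 were higher and 5 lower. The share called was 76.9% in each, against 20.9% of all genes in Cond 2 and 38.4% in Cond 3. PLAU, which encodes urokinase, was higher in Cond 2 (0.71) and lower in Cond 3 (-0.31). VEGFA was higher by 0.27 in Cond 2 and lower in Cond 3 (-1.54). MMP9, a gelatinase, was lower in Cond 2 (-1.60) and in Cond 3 (-0.57), and VIM, which encodes vimentin, was higher in both (0.52 and 1.07). In Cond 4 none of the genes of the 10 lists was called.

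**Figure D5:**
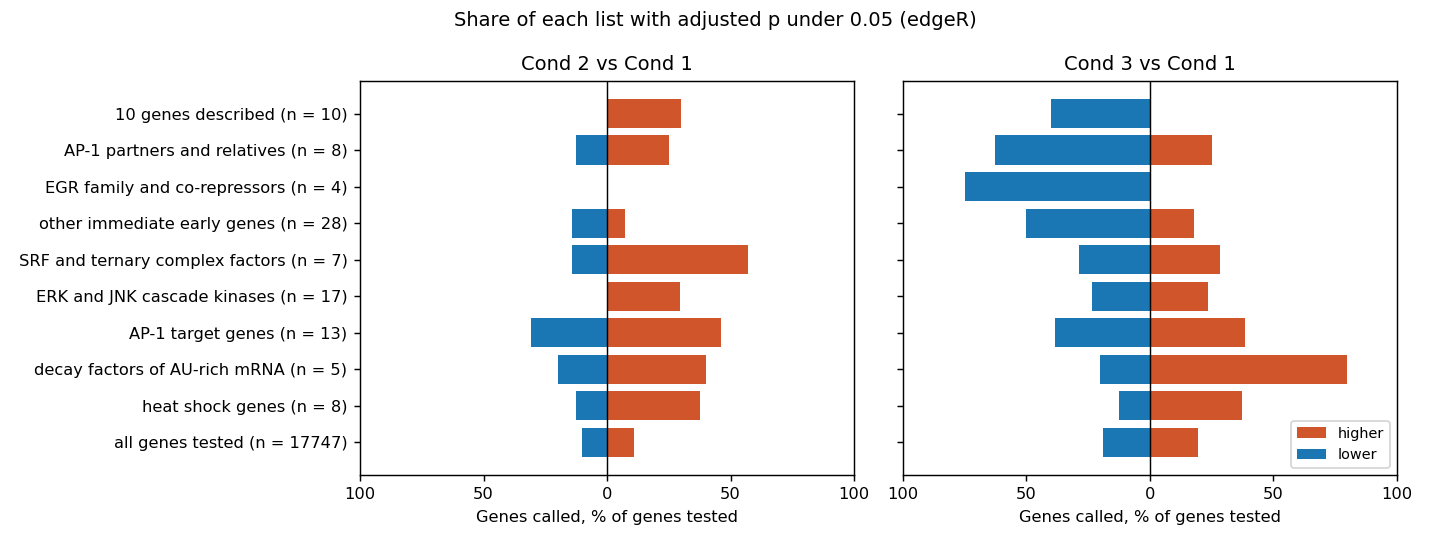
Share of the genes tested in each list (x axis, percent) that were higher (right) or lower (left) at an edgeR adjusted p under 0.05 in Cond 2 vs Cond 1 and Cond 3 vs Cond 1, with all 17747 genes at the bottom. Of the 10 genes, 30% were higher and 0% lower in Cond 2, and 40% were lower and 0% higher in Cond 3.

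Marker genes moved in the same comparisons. In Cond 3 vs Cond 1, 5 of 10 pluripotent stem cell markers were higher and 4 lower, with a median log2 fold change of 0.10. Their summed level was 8777 to 9502 TPM in Cond 3 and 8641 to 8909 TPM in Cond 1. NANOG (log2 fold change -2.16) and TDGF1 (-0.94), the 2 markers past both limits in any comparison, were among the lower ones. In Cond 2, 3 were higher and 5 lower. Of the 5 fibroblast markers tested, COL1A2 (1.20) and COL1A1 (0.80) were higher and THY1 (-1.56) lower in Cond 3, and these 3 were lower in Cond 2 (-0.41, -0.51 and -1.31). The part of these genes in the levels of EGR3, FOSL1, IER2 and EGR1 was not tested.

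The genes with profiles nearest to each member were sought for the 7 members past both limits in any comparison, as the smallest root mean square distance between log2 CPM profiles centred on their means, over 15701 genes and 12 libraries. This is a description over libraries that include the conditions, with no test. IER2 was nearest to IFRD1 (distance 0.087) and ELK4 (0.13), FOSL2 to SYT9 (0.103) and ASPH (0.124), and FOSL1 to TNRC18 (0.251) and the pseudogene PSAT1P3 (0.252). EGR1 was nearest to TEX37 (0.267) and to ARC (0.27), another immediate early gene, and EGR3 to DDIT3 (0.358), which encodes the stress factor CHOP, and DUSP4 (0.405), a phosphatase of MAP kinases. DDIT3 had means of 49.6, 71.0, 7.30 and 55.3 TPM in Cond 1 to Cond 4, and DUSP4 of 8.02, 12.3, 2.14 and 9.35 TPM. For FOSB the nearest were HIST4H4 (0.516) and JUNB (0.541), and for JUNB FKBP1C (0.374) and THAP7-AS1 (0.378).

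Ordered by mean TPM, EGR1 and EGR3 ran Cond 3, Cond 4, Cond 1, Cond 2 from low to high, and of these neighbours only Cond 4 and Cond 1 overlapped. FOSL1 and JUN ran Cond 3, Cond 1, Cond 4, Cond 2. For FOSL1 the libraries of Cond 3 alone were separate from the next condition, and for JUN those of Cond 2 alone. IER2 ran Cond 3, Cond 4, Cond 2, Cond 1, with overlap among the upper 3. FOSL2 was separate between Cond 2 and Cond 1 and between Cond 1 and Cond 3, and JUND only between Cond 2 and Cond 4. For FOS, FOSB and JUNB all neighbouring conditions in the order overlapped.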

How the data were processed

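The 12 libraries were poly(A) RNA-Seq of 201B7 cells, 3 per condition, made with a directional kit. According to the methods and the submitters' processing notes, the authors trimmed the reads with cutadapt 4.1 and fastp 0.20.1, aligned them to GRCh38 with HISAT2 2.1.0 and counted them with featureCounts. Read counts per gene, not normalized, and TPM, per gene length, were deposited by the authors. Strand setting, treatment of multi-mapped reads and annotation release are not given in the sources used here, so reads of a gene and of an antisense or overlapping partner cannot be told apart. In the count table, 58575 genes were usable and 5 broken lines were left out.

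Counts were normalized by TMM, filtered with filterByExpr (17747 genes) and tested with edgeR 4.0.16 in R 4.3.3, in a joint fit of the 4 conditions. A 95% interval is the estimate ± 1.96 SE. The scripts were tested on simulated data. The genes and lists were chosen with earlier results of these data known. From the lists, the genes past both limits in any comparison were named, at most 5 per list, and for each member past both, the 2 nearest profiles among genes with a mean TPM of at least 1 (log2 CPM with a prior count of 2). Values of 1 gene that this rule names are not reported here. Coordinates are from GENCODE 44. Alternatives were DESeq2 1.42.0, limma 3.58.1 on log2(TPM + 1) and log2(TPM + 0.1), a fit with the replicate number as a block, each library left out, the 6 libraries of a comparison fitted alone, genes reaching a TPM of 1 everywhere, all genes without the low-count filter, and upper-quartile normalization.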

Additional observations from a re-analysis of the deposited data

How the results depend on the processing

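The calls of EGR3, FOSL1, IER2 and EGR1 in Cond 3 vs Cond 1 and of FOSL2 and EGR3 in Cond 2 vs Cond 1 held at an adjusted p under 0.05 in all alternatives in which the gene was tested. FOSB and EGR3 were not tested when a TPM of 1 in every library was required. The count of genes called in Cond 2 vs Cond 1 was 3, and became 0 with a fold change above 2 required and 7 without the filter on low counts. In Cond 4 vs Cond 1 it was 0, and became 1 without the filter (FOS, -0.66, adjusted p = 2.09e-08). The prior degrees of freedom of edgeR were 14.3 with the filter and infinite without it. At an infinite value the trend replaces each gene's own spread, so the calls without the filter do not take that spread into account. In the main fit the biological coefficient of variation of FOS was 43.2% at a trend of 7.67%. With 1 library left out, 2 to 3, 4 to 6, 0 and 6 to 8 genes were called in Cond 2, Cond 3 and Cond 4 vs Cond 1 and in Cond 3 vs Cond 2. In Cond 3 vs Cond 1, FOSB was called without Cond 3 replicate 2 or 3 (1.52 in both, adjusted p = 0.0184 and 0.0183), in the 6 libraries alone (1.18, adjusted p = 0.0299), with upper-quartile normalization (1.20, adjusted p = 0.0489) and without the filter (1.17, adjusted p = 0.000429). JUNB was called there without Cond 3 replicate 3 (0.82, adjusted p = 0.0238) and without the filter (0.51, adjusted p = 0.0156), and was 0.09 without Cond 3 replicate 1. FOS was called in Cond 3 vs Cond 2 without the filter (adjusted p = 8.39e-07).

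Reversals concerned genes that were not called. FOS in Cond 3 vs Cond 1 was -0.49 with limma on log2(TPM + 0.1) and -0.46 on log2(TPM + 1), and -1.06 to 0.51 with a library left out. FOS in Cond 3 vs Cond 2 was -0.12 and -0.10 with limma and -0.57 to 1.00 with a library left out. JUND in Cond 3 vs Cond 1 was 0.00 with DESeq2, 0.02 with both limma fits and upper-quartile normalization, 0.01 with the TPM filter, and -0.05 to 0.04 with a library left out. Leaving out a library gave -0.11 to 0.29 for FOSL1 in Cond 2 vs Cond 1, and -0.01 to 0.17 for JUN, -0.01 to 0.07 for JUND and -0.28 to 0.03 for EGR3 in Cond 4 vs Cond 1. The cause was not tested.

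With the replicate number as a block, 3, 4, 0 and 8 genes were called, as without it, and FOS in Cond 3 vs Cond 1 was -0.36. Same-numbered libraries of different conditions had correlations of their deviations between -0.013 and 0.038, and best matched their own number in 1 of 3 (Cond 2 vs Cond 1), 2 of 3 (Cond 3 vs Cond 1), 3 of 3 (Cond 4 vs Cond 1) and 1 of 3 cases (Cond 3 vs Cond 2), so the numbers were not taken as pairs. No scaling moved the median log2 fold change of all genes by more than 0.062. That shift was upward, in Cond 2 vs Cond 1 with limma on log2(TPM + 0.1). Every member had a higher value there than in the main fit, such as JUND (0.14 against 0.05) and EGR1 (0.52 against 0.43). Comparisons of Cond 2 on TPM carry this shift. FOSB, at 12 reads in the lowest library, had large counting error, and 3 libraries per condition limited what could be seen for FOS.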
